A study of Mus musculus with 12 samples.

Results

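The genes described are 9 markers of the rare non-neuronal cells that sit among the odour-sensing neurons of the mouse main olfactory epithelium (MOE). Trpm5, Pou2f3, Avil, Chat and Il25 mark tuft-type microvillous cells, and Foxi1, Ascl3, Cftr and Coch mark ionocyte-type microvillous cells. They were chosen by gene symbol, with no threshold on their values, and each matched 1 probe set of the array, so 9 of the 28944 experimental probe sets are described, out of 21789 that carry a single symbol. All 9 passed the filter on low signal, a mean log2 signal above 5 over the arrays, as did 28151 probe sets in all. Mean signals were 6.56 to 7.34 for the tuft markers and 8.29 to 11.54 for the ionocyte markers. The median of mean signals over all tested probe sets was 7.93. Passing the filter does not show a signal above background, which was not measured. The members lie on 8 chromosomes, Trpm5 and Ascl3 both on chromosome 7, Chat and Il25 both on chromosome 14, and the others on chromosomes 9, 10, 11, 6 and 12 for Pou2f3, Avil, Foxi1, Cftr and Coch.

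The study asked what loss of H2be, a histone H2B variant gene of olfactory neurons, does to gene expression in this tissue at 6 months of age. H2be-KO mice carry an allele in which a membrane-targeted mCherry reporter (Gap43-mCherry) takes the place of the H2be coding sequence, in a line established by crossing founders to C57Bl/6, and WT mice have an unaltered H2be locus. Each genotype had 6 arrays, and each array received whole-MOE RNA from a pool of a pair of animals. The sample labels gave no sex, and Y-linked signal was low on arrays 1 to 3 and high on arrays 4 to 6 of each genotype. Values are deposited log2 signals, on which a difference of 1 is a doubling. The H2be probe set, annotated as H2bc21, read 11.89 ± 0.17 (SD, n = 6) in WT and 11.65 ± 0.12 in H2be-KO. Where its probes lie relative to the replaced coding sequence was not known here, so this value does not check the labels.

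Tuft cells are chemosensory epithelial cells that detect luminal compounds through a taste-like cascade, in which the cation channel TRPM5 opens downstream of phospholipase C. In the nose they depend on the POU-domain factor POU2F3, release acetylcholine, and are a source of the cytokine IL-25. Ionocytes are epithelial cells rich in ion channels and proton pumps whose identity depends on forkhead factors of the FOXI family, and in the olfactory epithelium they descend from progenitors that express the basic helix-loop-helix factor ASCL3. Both types are rare, so few of the cells that supply whole-tissue RNA belong to them. Which cells gave the signal of each member was not tested.

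The samples carried the message of the labelled tissue. Omp, the marker of mature olfactory neurons, averaged 12.90 in both genotypes, and Cyp2g1, an enzyme of sustentacular (supporting) cells, 12.85 in H2be-KO and 12.77 in WT. Arrays correlated with one another at 0.951 to 0.985 over the probe sets tested, and array medians lay between 7.895 and 7.965, lowest in H2be-KO replicate 4. The Y-linked genes Eif2s3y and Uty averaged 1.42 to 2.61 on the arrays numbered 1 to 3 of each genotype and 9.92 to 10.27 on those numbered 4 to 6. Amelx, an enamel gene, averaged 7.57 in H2be-KO and 5.57 in WT through high values in H2be-KO replicates 1 and 6, so values without those arrays are given where they matter.

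Promoters of 7 of the 9 members were found in the RefSeq table on build GRCm38.p6. Pou2f3 and Il25 had no entry. The 250 bases before the annotated gene start are printed 5′ to 3′ on the gene's strand for Trpm5, Avil and Foxi1, the members with the 3 highest pairwise correlations over the arrays, none of which passed adjustment, and for Chat, the one member whose window held a searched motif, in capitals.
Trpm5 (chr7:143094643-143094892, minus strand): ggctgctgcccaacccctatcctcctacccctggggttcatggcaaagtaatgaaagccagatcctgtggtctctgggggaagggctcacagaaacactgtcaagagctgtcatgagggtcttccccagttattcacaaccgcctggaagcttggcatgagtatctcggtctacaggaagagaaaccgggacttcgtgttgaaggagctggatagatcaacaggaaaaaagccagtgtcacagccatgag
Avil (chr10:127000459-127000708, plus strand): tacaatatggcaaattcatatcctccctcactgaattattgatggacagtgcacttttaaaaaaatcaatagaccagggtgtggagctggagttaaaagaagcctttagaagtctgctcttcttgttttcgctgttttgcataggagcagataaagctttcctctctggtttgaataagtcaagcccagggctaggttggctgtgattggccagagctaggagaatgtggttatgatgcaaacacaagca
Foxi1 (chr11:34208090-34208339, minus strand): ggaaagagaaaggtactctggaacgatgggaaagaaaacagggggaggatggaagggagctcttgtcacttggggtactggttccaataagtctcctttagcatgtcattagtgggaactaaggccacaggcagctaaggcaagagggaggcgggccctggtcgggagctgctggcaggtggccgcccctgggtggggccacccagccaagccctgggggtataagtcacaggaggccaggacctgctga
Chat (chr14:32465910-32466159, minus strand): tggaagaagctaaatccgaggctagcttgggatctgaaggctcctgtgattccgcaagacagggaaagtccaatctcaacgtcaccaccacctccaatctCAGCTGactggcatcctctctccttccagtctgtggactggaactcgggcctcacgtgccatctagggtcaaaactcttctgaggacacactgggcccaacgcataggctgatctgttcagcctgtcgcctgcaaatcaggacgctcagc
The motifs searched on both strands were the octamer ATGCAAAT bound by POU2F factors, the forkhead motif TGTTTAC, and the E-box CAGCTG bound by basic helix-loop-helix factors, which reads the same on both strands. A single match was found, so no motif overlapped another. In windows of the same length, the octamer was present in 1.60%, the forkhead motif in 3.17% and the E-box in 13.0% of 32851 promoters. Among the 7 members with a sequence, Chat held the E-box, starting at position -150 from its gene start, and neither the octamer nor the forkhead motif was found in any of them. The windows ranged widely in base composition, with 52.8% G and C for Trpm5, 42.0% for Avil, 58.8% for Foxi1, 34.8% for Ascl3 and 76.4% for Cftr, against 53.2% over all promoters.

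Of the 9 members, 1 was lower in H2be-KO and none was higher at an unadjusted limma p under 0.05, the study's own call rule. Over all tested probe sets that rule called 5.55% in either direction, 1.77% lower and 3.78% higher, so a single call among 9 genes is not read as a result about the set. After Benjamini-Hochberg adjustment over all tested probe sets no member passed, the limma adjusted p ranging from 0.753 to 0.915, and no probe set of the array passed at an adjusted p under 0.05. The difference between the genotypes (H2be-KO minus WT) was negative for 7 members and positive for Pou2f3 and Cftr, with a median of -0.12. Over all tested probe sets 43.8% of differences were negative and the median was 0.02. In whole tissue, fewer cells of a type and less RNA per cell cannot be told apart.

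**Figure D1:**
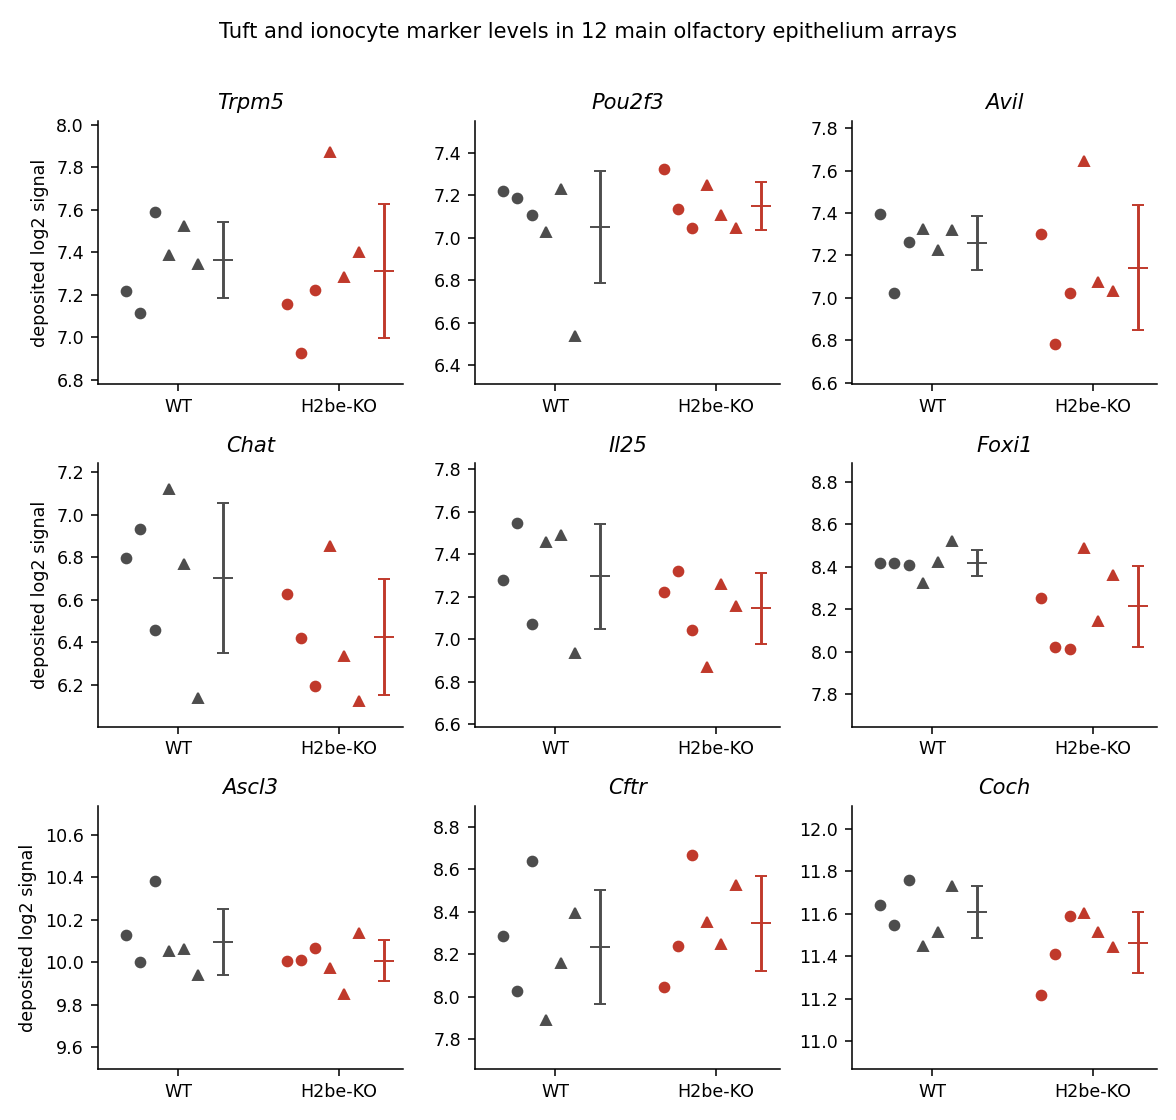
Deposited log2 signal (y axis, the same span in each panel) of the 9 marker genes in 6 WT (grey) and 6 H2be-KO (red) arrays, with the mean and SD of each genotype at the right of its points; points run from replicate 1 to 6, circles have low and triangles high Y-linked signal. The genotypes overlapped for every gene, and Foxi1 had 4 H2be-KO arrays below all WT arrays.

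The ionocyte factor Foxi1 was the member that passed the unadjusted threshold. Its signal in H2be-KO ranged from 8.01 to 8.49 with a median of 8.20, and in WT from 8.33 to 8.52 with a median of 8.42. The H2be-KO arrays 1, 2, 3 and 5 lay under the whole WT range, while arrays 4 and 6 lay inside the WT range. The difference was -0.20 ± 0.09 (SE), a change of -13.2% in signal, with a 95% interval of -0.40 to -0.01, a limma p of 0.0403 and a two-sided exact permutation p of 0.0455. Foxi1 was also the member with the most unequal spread, an SD of 0.19 in H2be-KO against 0.06 in WT.

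The call for Foxi1 lay close to its threshold. It was lost when any 1 of 8 arrays was left out, H2be-KO replicates 2, 3 and 5 and WT replicates 1, 2, 3, 5 and 6, where the limma p ranged from 0.0569 to 0.0992. The difference itself was -0.16 to -0.26 in all 12 fits without 1 array, and -0.25 without the high-Amelx arrays. In the arrays with low Y-linked signal it was -0.32, with a limma p of 0.0194 for 3 arrays a genotype, and in those with high Y-linked signal -0.09, with a limma p of 0.582, and whether these differ was not tested. Foxi1 was inversely correlated with the array median (Pearson r = -0.78, permutation p = 0.00316, adjusted p = 0.0688 over the 99 relations described further on), and after median centring the difference was -0.21 (limma p = 0.0440). The mean level of 4 horizontal basal cell markers, relative to the array mean, ran from 0.580 to 0.837 in H2be-KO and from 0.646 to 1.25 in WT, an untested difference in means of -0.20 with overlapping ranges and 1 marker of 4 (Itgb4) called lower. Its correlation with Foxi1 was 0.49 (permutation p = 0.101, adjusted p = 0.312; rho = 0.57), and its part in the Foxi1 difference was not tested.

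Ascl3, which encodes the factor of the progenitors that give rise to this lineage, overlapped broadly between the genotypes. It ranged from 9.85 to 10.14 in H2be-KO (median 10.01) and from 9.94 to 10.38 in WT (median 10.06), with H2be-KO replicate 5 the lowest and WT replicate 3 the highest. The difference was -0.09 ± 0.09 (SE; 95% interval -0.27 to 0.10, limma p = 0.327, exact p = 0.297). Its spread was small, with a within-genotype SD of 0.129, and 14.6% of tested probe sets had a smaller one.

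Coch, which encodes the secreted protein cochlin, had a lower mean in H2be-KO with overlapping ranges. Its signal was 11.22 to 11.61 in H2be-KO (median 11.48) and 11.45 to 11.76 in WT (median 11.59). All 6 H2be-KO arrays lay below the WT mean and 3 of them below the lowest WT array. Replicate 4, at 11.605, was just under the WT mean of 11.607, and 5 of the 6 lay below the WT median. The difference of -0.14 ± 0.09 (SE; 95% interval -0.33 to 0.05) did not pass the threshold (limma p = 0.126, exact p = 0.0974), although after quantile normalization of the deposited values it was -0.20 with a limma p of 0.0180. Without the high-Amelx arrays it was -0.08, with a limma p of 0.441.

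Cftr encodes the chloride channel that defines ionocytes in airway epithelium. Its signal was 8.04 to 8.67 in H2be-KO (median 8.30) and 7.89 to 8.64 in WT (median 8.22), and the ranges were nearly the same. The difference was 0.11 ± 0.13 (SE; 95% interval -0.17 to 0.39, limma p = 0.409, exact p = 0.448). On the linear scale the interval runs from -11.1% to 31.4%.

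Among the tuft markers, Chat had the largest difference in size. Chat encodes choline acetyltransferase, the enzyme that makes acetylcholine, and the E-box printed above lies in its upstream window. Its signal was 6.13 to 6.85 in H2be-KO (median 6.38) and 6.14 to 7.12 in WT (median 6.78). WT replicates 2 and 4 lay above all H2be-KO arrays, but WT replicate 6 was nearly as low as the lowest H2be-KO array. The difference was -0.28 ± 0.16 (SE; 95% interval -0.62 to 0.07, limma p = 0.107, exact p = 0.158).

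The Chat call depended on the setting. With array weights the difference was -0.38 (limma p of 0.00975), and adding the first component of the residuals to the fit left it at -0.28 (limma p of 0.0267). Without WT replicate 6 the difference was -0.39, with a limma p of 0.0159, and without H2be-KO replicate 4 it was -0.36, with a limma p of 0.0381. Leaving out any other single array kept its limma p above 0.05. The settings that called Chat also called more of all 28151 tested probe sets lower than the 498 reported. The counts were 1405 with array weights, 1214 with the residual component, 1552 without WT replicate 6 and 600 without H2be-KO replicate 4. No probe set passed adjustment in any of them. Chat also had the widest within-genotype spread of the members, an SD of 0.315, exceeding that of 88.6% of tested probe sets.

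Trpm5, the channel of the tuft cell cascade, was at 6.93 to 7.87 in H2be-KO (median 7.25) and 7.11 to 7.59 in WT (median 7.37). Both the lowest and the highest of the 12 arrays, replicates 2 and 4, were H2be-KO, and the WT arrays lay between them. The difference was -0.05 ± 0.14 (SE; 95% interval -0.34 to 0.24, limma p = 0.711, exact p = 0.732), and it turned to 0.03 without H2be-KO replicate 2.

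Avil encodes advillin, an actin-binding protein of the tuft cell's apical bundle that some sensory neurons also express. It behaved like Trpm5 in its extremes, with 6.79 to 7.64 in H2be-KO (median 7.05) and 7.02 to 7.39 in WT (median 7.29). The same H2be-KO arrays, 2 and 4, were again the lowest and the highest. The difference was -0.12 ± 0.12 (SE; 95% interval -0.38 to 0.15, limma p = 0.367, exact p = 0.420).

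Pou2f3, the factor on which tuft cells depend, was at 7.05 to 7.33 in H2be-KO (median 7.12) and 6.54 to 7.23 in WT (median 7.15). A single array, WT replicate 6, lay well below the other 11. The difference was 0.10 ± 0.11 (SE; 95% interval -0.14 to 0.34, limma p = 0.397, exact p = 0.530). Without that array it was -0.0034.

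Il25, the cytokine through which tuft cells engage type 2 immune cells, was at 6.87 to 7.32 in H2be-KO (median 7.19) and 6.94 to 7.55 in WT (median 7.37). WT replicates 2, 4 and 5 lay above all H2be-KO arrays, and WT replicates 1, 3 and 6 lay among them. The difference was -0.15 ± 0.12 (SE; 95% interval -0.40 to 0.10, limma p = 0.214, exact p = 0.227).

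**Figure D2:**
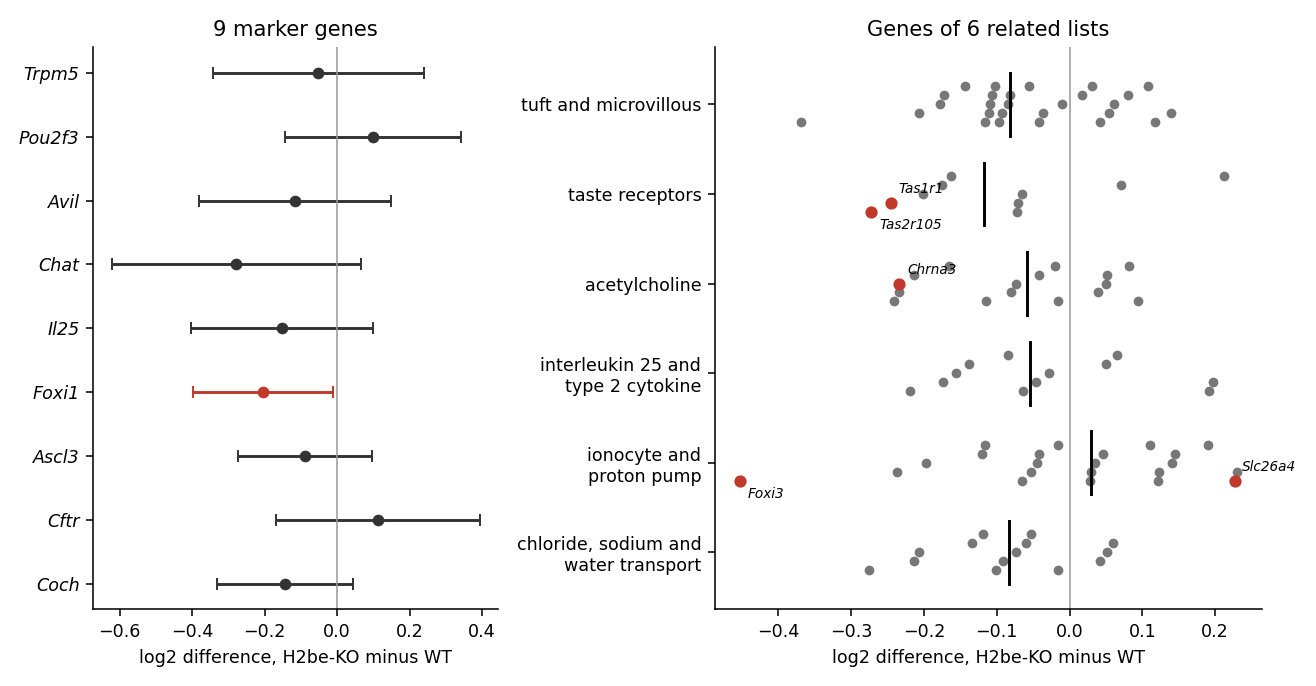
Left, log2 difference H2be-KO minus WT (x axis) of the 9 marker genes with 95% intervals from limma. Right, the same difference for each tested gene of 6 related lists, with the list median as a black bar; red marks an unadjusted limma p under 0.05, which 1 marker gene (Foxi1, -0.20) and 5 list genes (from Foxi3 at -0.45 to Slc26a4 at 0.23) reached.

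Genes that work with these markers were followed in 6 lists. Of 29 further tuft and microvillous cell genes, 27 had a probe set of their own and were tested, and none passed the unadjusted threshold in either direction. Their differences were negative for 18 and positive for 9, with a median of -0.08, beside 43.8% negative over all tested probe sets. The smallest p-values belonged to Trpc6, a calcium-permeable channel (-0.21, limma p = 0.182, exact p = 0.221), and to the homeobox gene Hmx3 (-0.17, limma p = 0.192, exact p = 0.223).

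Taste receptors, by which chemosensory cells sense sweet, savoury and bitter compounds, held 2 calls among 10 genes, both lower in H2be-KO. Of all tested probe sets 1.77% were called lower, and the calls are not read as a result about the list. The bitter receptor gene Tas2r105 averaged 5.66 ± 0.19 (SD, n = 6) in WT and 5.39 ± 0.20 in H2be-KO, a difference of -0.27 (limma p = 0.0266, exact permutation p = 0.0368), at a signal little above the filter. Tas1r1, a subunit of the savoury receptor, differed by -0.25 (limma p = 0.0308, exact permutation p = 0.0390). The list median was -0.12, with 8 of 10 differences negative, beside 43.8% over all tested probe sets. The Tas2r105 call was lost without H2be-KO replicate 5 or WT replicate 3 or 4, and the Tas1r1 call without H2be-KO replicate 5 or 6 or WT replicate 1 or 2. Without the high-Amelx arrays the list held 1 lower call. With trend and robust moderation, and in each split by Y-linked signal, it held 0.

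Of 16 genes that handle or receive acetylcholine, 1 was called lower and none higher, with a median difference of -0.06. Over all tested probe sets 1.77% were called lower, so the single call is not read as a result about the list. The nicotinic receptor subunit gene Chrna3 was at 6.91 ± 0.20 (SD, n = 6) in H2be-KO and 7.14 ± 0.11 in WT, and 4 of 6 H2be-KO arrays lay under the lowest WT array while 1 lay above all of them. Its difference was -0.23 (limma p = 0.0323, exact permutation p = 0.0411), and it was -0.16 (limma p = 0.172) without the high-Amelx arrays. The call was also lost on leaving out H2be-KO replicate 1, 3, 5 or 6 or WT replicate 2, 4 or 5.

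Neither of the remaining groups downstream of the markers gave a call. Among interleukin 25 receptor and type 2 cytokine genes, 12 of 14 were tested, with a median of -0.05. The smallest p-values were those of Il13ra1, a receptor chain for interleukin 13 (0.19, limma p = 0.0904, exact p = 0.0887), and Il4ra, its partner chain (-0.16, limma p = 0.136, exact p = 0.117). Among epithelial chloride, sodium and water transport genes, 14 of 15 were tested, with a median of -0.08. There the smallest were Scnn1b, a subunit of the epithelial sodium channel (-0.21, limma p = 0.0982, exact p = 0.121), and Kcnn4, a calcium-gated potassium channel (-0.28, limma p = 0.130, exact p = 0.197).

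Of 24 further ionocyte and proton pump genes, 22 were tested, 1 was called lower and 1 higher, and the median was 0.03. The shares over all tested probe sets were 1.77% lower and 3.78% higher, and these calls are not read as a result about the list. Foxi3, which encodes a forkhead factor of the same family as Foxi1, was at 5.32 to 6.43 in H2be-KO (median 6.22) and 6.11 to 6.90 in WT (median 6.50). H2be-KO replicates 5 and 6 lay below all WT arrays and the rest overlapped. The difference was -0.45 ± 0.18 (SE; limma p = 0.0228, exact permutation p = 0.0433). The call was lost without H2be-KO replicate 5, which left a difference of -0.30, and without WT replicate 2 or 4.

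Slc26a4, which encodes the anion exchanger pendrin, moved the other way, at 6.76 ± 0.17 (SD, n = 6) in H2be-KO and 6.53 ± 0.19 in WT. The difference was 0.23 (limma p = 0.0475, exact permutation p = 0.0541), and 2 H2be-KO arrays lay above all WT arrays. It passed the threshold in only 4 of the 12 fits that left out 1 array. Over all 22 tested genes of the list, 12 differences were positive and 10 negative. The 5 proton pump subunit genes, a subset named after its values were seen, had positive differences of 0.03 to 0.23, none of which passed the threshold. After quantile normalization 1 of the 5 was negative, at -0.0134.

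The second question was whether the members covaried over the 12 arrays. Among their 36 pairs, Pearson r ranged from -0.73 to 0.73, with 22 positive and 14 negative. A permutation p under 0.05 was reached by 5 pairs with Pearson and 2 with Spearman correlation, and after Benjamini-Hochberg adjustment over the 36 pairs by none (smallest adjusted p 0.106 with Pearson). The 10 pairs of tuft markers had a median r of 0.27, the 6 pairs of ionocyte markers 0.38, and the 20 pairs across the types -0.03. Centred within genotype, the medians were 0.25, 0.18 and -0.03, so the order of the tuft and ionocyte pairs changed. These are descriptions, and pairs share genes and arrays.

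**Figure D3:**
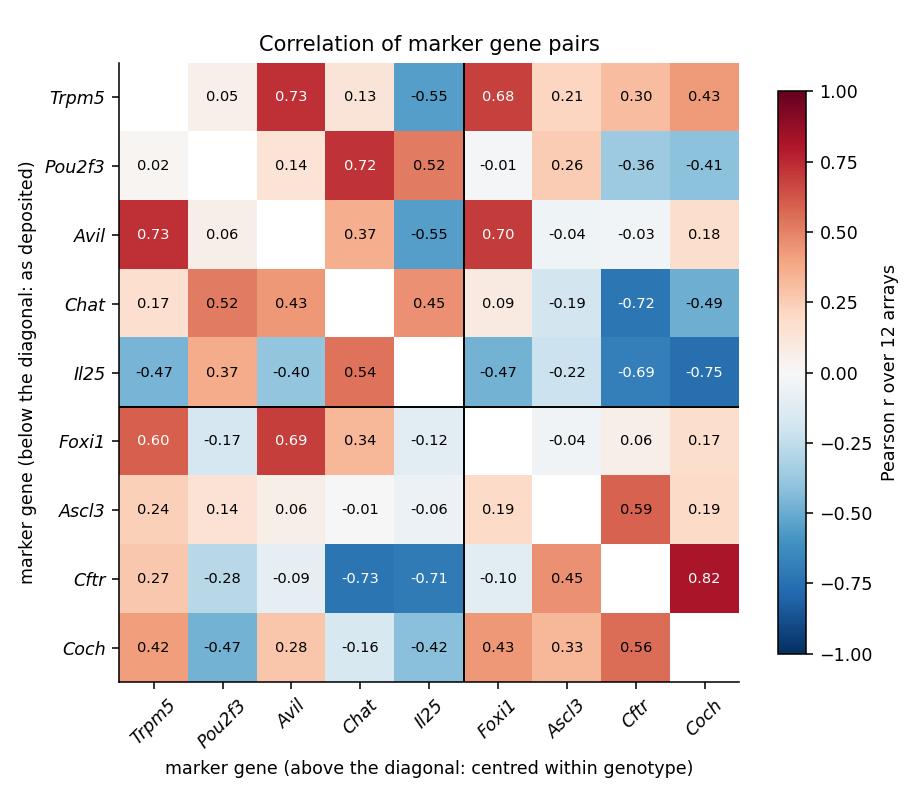
Pearson r over 12 arrays for each of the 36 pairs of marker genes, as deposited (below the diagonal) and after centring within genotype (above it), with black lines between the 5 tuft and the 4 ionocyte markers. Trpm5, Avil and Foxi1 form a positive trio across the line, and Cftr is negative with Chat and Il25.

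Trpm5 with Avil gave the highest r of the 36 pairs (0.73, permutation p = 0.00743, adjusted p = 0.106; Spearman rho = 0.48, permutation p = 0.122, adjusted p = 0.525). Of the 28150 other probe sets tested, 313 had a higher correlation with Trpm5 than Avil had. The relation rested on the extremes, since r was 0.20 without H2be-KO replicates 2 and 4. Within H2be-KO r was 0.85 (exact p = 0.0486) and within WT 0.30 (exact p = 0.593).

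Foxi1, a marker of the other cell type, was positively correlated with both over all 12 arrays, without passing adjustment. Its r with Avil was 0.69 (permutation p = 0.0118, adjusted p = 0.106; rho = 0.57, permutation p = 0.056) and with Trpm5 0.60 (permutation p = 0.0389, adjusted p = 0.280; rho = 0.47, permutation p = 0.128). Within H2be-KO these were 0.80 and 0.85, and within WT -0.02 and -0.10, so neither relation appeared among WT arrays. Without H2be-KO replicates 2 and 4 they were 0.49 and 0.33.

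The trio shared an inverse relation with the array median, which was -0.84 for Trpm5 (permutation p = 0.00066), -0.75 for Avil (permutation p = 0.00432) and -0.78 for Foxi1. Spearman rho was -0.79, -0.65 and -0.78, and r without the 2 arrays of most extreme median was -0.63, -0.60 and -0.82. None of the 99 relations of members to cell type scores and array measures passed at an adjusted Pearson p under 0.05 (smallest 0.0653). After median centring the 3 pairs kept r of 0.77, 0.66 and 0.74 for Trpm5 with Avil, Trpm5 with Foxi1 and Avil with Foxi1. The part of array level in these relations beyond that centring was not tested.

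Cftr was negatively correlated with Chat (r = -0.73, permutation p = 0.00691, adjusted p = 0.106; rho = -0.69, permutation p = 0.0166, adjusted p = 0.299) and with Il25 (r = -0.71, permutation p = 0.0108, adjusted p = 0.106; rho = -0.78, permutation p = 0.00388, adjusted p = 0.140). Within H2be-KO the correlations were -0.58 and -0.46 and within WT -0.81 and -0.82, with the same sign in both genotypes. Leaving out the 2 arrays farthest from the median of the first gene gave -0.59 for Chat, with a permutation p of 0.0793, and -0.75 for Il25.

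The same genes were related to the main axis on which the arrays differed. The first principal component of the residuals, which held 30.8% of the residual variance of all tested probe sets, correlated with Cftr at 0.78, Il25 at -0.75, Chat at -0.70 and Pou2f3 at -0.65. In rank terms 2 of these passed adjustment over the 99 relations, Cftr (rho = 0.87, adjusted permutation p = 0.0228) and Il25 (rho = -0.80, adjusted permutation p = 0.0427). Cftr also passed in rank terms with the mean levels of sustentacular markers (rho = 0.84, adjusted permutation p = 0.0364), ensheathing glia markers (rho = 0.83, adjusted permutation p = 0.0364) and gland cell markers (rho = 0.80, adjusted permutation p = 0.0427), and Il25 with that of ensheathing glia markers (rho = -0.87, adjusted permutation p = 0.0228). The mean level of 7 sustentacular markers correlated with Cftr at 0.73 and with Chat, Il25 and Pou2f3 at -0.76, -0.73 and -0.70, and its range was 3.29 to 3.48 above the array mean in H2be-KO and 3.29 to 3.52 in WT. Without the 2 arrays farthest from the median of that level, these were 0.83, -0.59, -0.73 and -0.32. For Pou2f3, rho was -0.52 with that level (adjusted permutation p = 0.278) and -0.50 with the component (adjusted permutation p = 0.304). Its r with the component was -0.35 without the 2 arrays farthest on it. With that component regressed out of genotype-centred values, Cftr and Chat were at -0.25 and Cftr and Il25 at -0.11. Which cells or handling set this axis was not tested.

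Centred within genotype, Cftr and Coch were the closest pair (r = 0.82, permutation p = 0.00249, adjusted p = 0.0896). Within WT they reached 0.94 (exact p = 0.00694) and within H2be-KO 0.71 (exact p = 0.106). As deposited, the pair stood at 0.56, the genotype differences of its genes having opposite signs. Both genes were also correlated with the first residual component, Cftr at 0.80 and Coch at 0.71 in genotype-centred values. As deposited, Coch was correlated with it at 0.61 (permutation p = 0.0326, adjusted p = 0.162).

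The members were then set against the genes of their own list, tuft markers against 27 tuft genes and ionocyte markers against 22 ionocyte genes, in genotype-centred values. Of these 223 relations, 8 passed at an adjusted permutation p under 0.05 with Pearson and 3 with Spearman correlation. The closest was Avil with Sh2d7, which encodes an SH2-domain protein of tuft cells, at r = 0.96 (permutation p = 0.00031, adjusted p = 0.0334; rho = 0.97, adjusted p = 0.0301). Sh2d7 ranked first among all 28150 other probe sets in its likeness to Avil.

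The Avil and Sh2d7 relation was present in each split examined. It was 0.96 within H2be-KO, 0.97 within WT, 0.90 without the 2 arrays farthest from the median of Avil, and 0.94 to 0.98 with any 1 array left out. Sh2d7 ranged from 6.05 to 7.38 in H2be-KO and from 6.38 to 7.01 in WT, with H2be-KO replicates 2 and 4 again lowest and highest. With the first residual component regressed out it was also 0.96. Trpm5, by comparison, reached 0.74 with Sh2d7 (permutation p = 0.0231, adjusted p = 0.185).

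**Figure D4:**
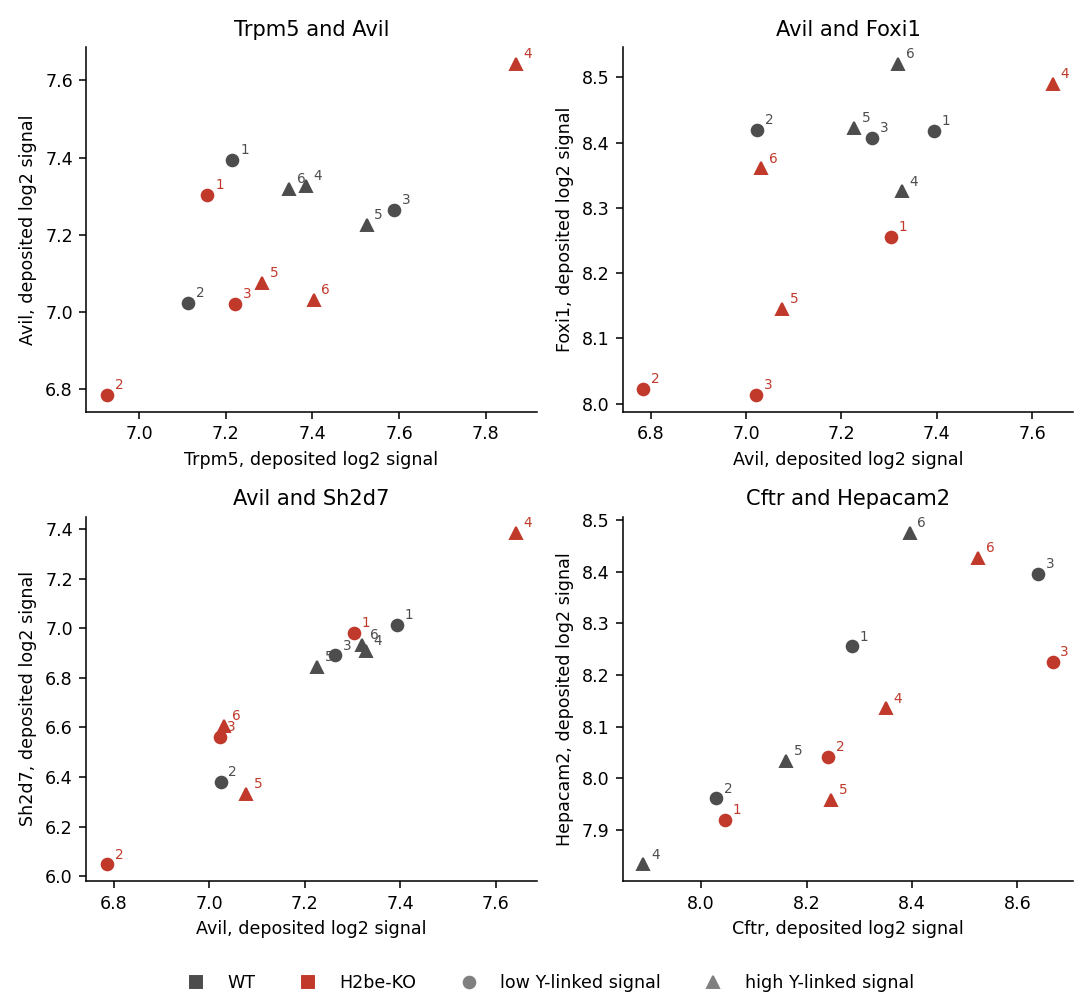
Deposited log2 signals of 4 gene pairs over 12 arrays, WT in grey and H2be-KO in red, numbered by replicate, circles with low and triangles with high Y-linked signal. Avil and Sh2d7 (genotype-centred r 0.96) and Cftr and Hepacam2 (0.88) form lines through both genotypes, while Trpm5 with Avil and Avil with Foxi1 depend on H2be-KO arrays.

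Chat followed 2 other tuft genes, Sh2d6, a relative of Sh2d7 (r = 0.89, permutation p = 0.00074, adjusted p = 0.0334), and Gfi1b, a zinc-finger repressor found in tuft cells (r = 0.86, permutation p = 0.00075, adjusted p = 0.0334). Their Spearman correlations of 0.87 and 0.80 had adjusted permutation p-values of 0.0662 and 0.0985. Within H2be-KO and within WT they were 0.91 and 0.88 for Sh2d6 and 0.65 and 0.98 for Gfi1b. Of the 27 tuft list genes, 21 were positively correlated with Chat, with a median r of 0.30. The most inverse were Dclk1 (r = -0.77, adjusted permutation p = 0.106) and Bmx (r = -0.76, adjusted permutation p = 0.124), named after their values were seen. Pou2f3 was also inversely related to Dclk1 (r = -0.77, adjusted permutation p = 0.0786). None of these inverse relations passed adjustment. Among all other probe sets Sh2d6 ranked 187th and Gfi1b 375th in likeness to Chat. The 5th and 95th percentiles of r with Chat over all tested probe sets were -0.86 and 0.77. Chat itself was correlated with the first residual component at -0.78 in genotype-centred values.

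Il25 was positively related to Matk, a tyrosine kinase gene (r = 0.81, permutation p = 0.00067, adjusted p = 0.0334), and to the homeobox gene Hmx2 (r = 0.81, permutation p = 0.00152, adjusted p = 0.0499). It was inversely related to Hpgds, which encodes the haematopoietic prostaglandin D synthase (r = -0.79, permutation p = 0.00179, adjusted p = 0.0499). Spearman correlations were 0.81, 0.80 and -0.79, of which that with Matk passed adjustment (adjusted permutation p = 0.0364). Among all 28150 other probe sets Matk ranked 897th and Hmx2 1015th in likeness to Il25, and the 95th percentile of r with Il25 over all tested probe sets was 0.76. With the first residual component regressed out they were 0.47, 0.45 and -0.57, all with permutation p-values above 0.10.

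Cftr followed Hepacam2, a cell adhesion gene (r = 0.88, permutation p = 0.00061, adjusted p = 0.0334; rho = 0.92, adjusted p = 0.0301), and Slc12a2, the sodium-potassium-chloride cotransporter that loads cells with chloride (r = 0.84, permutation p = 0.0016, adjusted p = 0.0499; rho = 0.77, adjusted p = 0.117). Hepacam2 ranked 82nd and Slc12a2 236th in likeness to Cftr, for which the 95th percentile of r was 0.73. Cftr was positively correlated with 11 of the 22 ionocyte list genes, with a median r of -0.04. For Hepacam2, r was 0.83 within H2be-KO and 0.92 within WT, and 0.64 (permutation p = 0.0314) with the first residual component regressed out. For Slc12a2 it was 0.94 and 0.76, and 0.52 (permutation p = 0.0924). Foxi1, Ascl3 and Coch had no relation to an ionocyte list gene that passed adjustment, nor did Trpm5 and Pou2f3 to a tuft list gene.

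The genes most like each member over the 12 arrays, out of 19550 named genes compared in genotype-centred values, are given as a description with no test. For Trpm5 they were Ppfibp1 (r = 0.92), Marveld1 (0.91) and Tmem63a (0.91), and for Avil, after Sh2d7, Tmem97 (0.91) and Rap2b (0.91). For Pou2f3 they were Lhfpl1 (0.97), the bitter receptor gene Tas2r106 (0.96) and Nkx2-4 (0.95), and these values share the low WT replicate 6. Chat was nearest to Fam78a (0.97), Cdpf1 (0.96) and Epha10 (0.95), and Il25 to Amhr2 (0.96), Vpreb2 (0.96) and Gdf9 (0.96).

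On the ionocyte side Foxi1 was nearest to Lnx1 (0.93), Mr1 (0.93) and Tmem41b (0.93), and Coch to Fbf1 (0.93), the olfactory receptor gene Olfr702 (0.92) and Ascc3 (0.89). Cftr was nearest to Fut11 (0.96), Oxct1 (0.95) and Lox (0.95). Ascl3 had the weakest nearest neighbours of the 9, Sil1 (0.88), Taf10 (0.84) and Ccdc180 (0.83). Of these 27 genes, Sh2d7 was the single one that also stood in a tuft or ionocyte list.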

How the data were processed

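RNA from whole MOE was hybridised to whole-transcript Mouse Gene 1.0 ST arrays. As the methods of the study describe, the authors screened arrays for outliers with arrayQualityMetrics, summarised probes with IterPLIER and applied sketch-quantile normalization in Affymetrix Expression Console (software versions: not given in the sources used here). Deposited log2 signals held 1 value for each probe set on each array. A change common to most transcripts would be removed by this normalization, and precision is limited by the number of arrays. Sample titles gave the groups.

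The platform annotation named the probe sets (21789 of 28944 experimental probe sets with 1 symbol, 1621 with several, 5534 with none). The 6612 control probe sets were left out. The 28151 experimental probe sets whose mean log2 signal exceeded 5, the level that the study used, were fitted with genotype as the only term in limma 3.58.1 (R 4.3.3, lmFit and eBayes), with Benjamini-Hochberg adjustment. The fit was tested on simulated data. Exact permutation tests ran over all 924 choices of 6 of 12 arrays (smallest p 0.0022). Correlations carry permutation p-values from 100000 resamples, drawn within genotype for genotype-centred values, and exact ones within a genotype. All tests were two-sided. No source says whether pools of one genotype came from separate litters, so p-values measure the spread between these samples. Levels of different probe sets were not tested against one another.

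The members and gene lists were chosen with earlier results of these data known. Named were all members, the 3 most alike genes each, list genes with an unadjusted p under 0.05 or otherwise the 2 with the smallest p, and list genes whose correlation with a member passed adjustment, which were added after their values were seen. List genes without a probe set of their own were not tested, and Irag2 was read under its older symbol Lrmp. Scores of 9 marker lists were array means of the markers less the array's mean over tested probe sets. Promoter sequences are RefSeq's (GRCm38.p6).

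Alternatives covered the filter, a floor at log2 5, median centring, quantile normalization, a block for the replicate number, covariates (Y-linked signal or the first residual component), trend and robust moderation, array weights, probe sets averaged by symbol, and arrays left out. Splits by Y-linked signal, regressing out the first residual component, and all alternatives for list genes were chosen after seeing the data.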

Additional observations from a re-analysis of the deposited data

Results flagged for a closer look

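Pou2f3 in WT held 1 array far from its group. WT replicate 6 read 6.54, which was 0.49 below the next array, a gap of 0.711 of the group's whole range, past Dixon's critical value for 6 samples. Chance flags about 1 in 20 groups, and 18 groups of 6 arrays were examined. The same array was the lowest WT array for Chat and Il25. The cause was not tested.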

How the results depend on the processing

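The count of members called lower in H2be-KO, 1 as reported, was 2 after quantile normalization (Coch added), with array weights, with the first residual component as covariate and with a replicate block (Chat added in these), and 0 with trend and robust moderation and in the arrays with high Y-linked signal. It ranged from 0 to 2 with 1 array left out. Lower calls over all tested probe sets moved as well, from 498 as reported to 899 after quantile normalization and 1405 with array weights. They were 1214 with the residual component, 951 with the replicate block and 1552 without WT replicate 6. With trend and robust moderation they were 443, and in the arrays with high Y-linked signal 274. The count of members called higher was 0 in every setting run. The replicate numbers were not taken as pairs, because same-numbered arrays deviated together unevenly (correlations 0.0896, 0.592, 0.393, 0.319, 0.0251 and 0.377 for numbers 1 to 6), and under the replicate block Chat had a limma p of 0.00762 and Foxi1 one of 0.0437. Signs turned for 3 differences near 0. Trpm5 ranged from -0.16 to 0.0252 with 1 array left out and was 0.10 in arrays with high Y-linked signal. Pou2f3 ranged from -0.0034 to 0.13 with 1 array left out, was -0.0206 with array weights, and was -0.0047 in arrays with low Y-linked signal, where Cftr was -0.000501. Within WT the correlation of Foxi1 was -0.10 with Trpm5 and -0.0158 with Avil. No pair of members passed adjustment as reported, and 1 did with the first residual component regressed out, Avil with Chat (r = 0.91, adjusted permutation p = 0.00432). The cause was not tested for any of these. Chat has no value under the filter at mean log2 7, which it does not pass. Over the 25 alternatives for list genes, lower calls ranged from 0 to 5 for taste receptors, 0 to 4 for acetylcholine genes (4 under the replicate block), 0 to 3 for ionocyte genes, 0 to 2 for tuft genes (2 with array weights), and 0 to 1 for the other two lists. Higher calls reached 2 for ionocyte genes and 1 for tuft, taste receptor and type 2 cytokine genes. The 5 proton pump differences included 1 negative value with array weights (-0.0141) and without WT replicate 3, 4 or 6 (-0.0304 to -0.0011). No measure of signal over background was used.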

Other observations

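Exact tests within each genotype were run for all 36 pairs of members and are unadjusted, and the pairs given here are a selection. Il25 and Trpm5, both made by tuft cells, were negatively correlated within H2be-KO (r = -0.87, exact p = 0.025 over 6 arrays) and stood at -0.32 (exact p = 0.506) within WT. Over all 12 arrays r was -0.47 (permutation p = 0.126, adjusted p = 0.428; rho = -0.43), and -0.15 without H2be-KO replicates 2 and 4. Pou2f3 and Chat stood at 0.88 within H2be-KO (exact p = 0.0222) and 0.70 within WT (exact p = 0.133), with 0.52 over all 12 arrays (permutation p = 0.0651; rho = 0.46). Chat and Il25 went opposite ways in the genotypes, -0.41 within H2be-KO (exact p = 0.424) and 0.91 within WT (exact p = 0.0125), a difference that was not tested. Coch was inversely related within WT to Il25 (r = -0.90, exact p = 0.025) and to Chat (r = -0.87, exact p = 0.0222). Within H2be-KO these stood at -0.64 (exact p = 0.171) and -0.09 (exact p = 0.863).

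Il25 was also inversely related to the mean level of 5 ensheathing glia markers (r = -0.79, permutation p = 0.0027, adjusted p = 0.0688; rho = -0.87, adjusted p = 0.0228), and r was -0.83 without the 2 arrays farthest from the median of that level. That level ranged from 0.137 to 0.602 in H2be-KO and from 0.219 to 0.650 in WT, relative to the array mean. Spib, a factor of the Ets family with roles in tuft cells and lymphocytes, had a wide range, from 5.45 to 7.82 in H2be-KO and 7.24 to 7.91 in WT (difference -0.37, limma p = 0.237, exact p = 0.392). It was named after its values were seen.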
